A study of Mus musculus with 12 samples.

Results

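The mitochondrial ribosomal protein genes were compared in striatal tissue (caudate putamen) between adult male mice exposed to ethanol early in gestation, through their mothers' drinking, and mice that were not. Members were the array probes that the platform annotation assigns to a single symbol starting with Mrpl (large subunit) or Mrps (small subunit) followed by a number, and that had a detection p-value under 0.05 on at least 6 of the 12 arrays. The annotation named 132 such probes for 76 genes, and 109 probes for 72 genes passed the detection requirement, among 20296 probes tested of 45281 on the array. No probe for Mrpl19, Mrpl32, Mrpl39 or Mrps14 was detected on enough arrays, and Mrpl41 and Mrps36 were not analysed here. The 72 genes comprised 47 of the large subunit and 25 of the small subunit. Mrps18a and Mrps30 carry a small-subunit name but encode proteins of the large subunit in mammals and were counted there.

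All mice were C57BL/6J males of 12 weeks. In the ethanol group (6 arrays) the pregnant dams could drink ethanol by choice, as a solution of 10% by volume, starting 0.5 days and ending 8.5 days after mating, and the control group (6 arrays) is labelled only as control. The exposure therefore ended before most organs form, and the RNA was collected in adulthood. The same treatment description is attached to every sample, so that what the control dams drank was taken only from the group labels. The labels do not say whether the 6 mice of a group came from separate litters, so that each p-value reflects only how these samples spread. The sample titles of the 12 arrays carry 2 different long numbers, which were taken to name 2 chips. Each number stands on 3 ethanol and 3 control arrays. Below, a level is a background-corrected, quantile-normalized log2 intensity, and a difference is the mean level of the ethanol group minus that of the control group. Levels of different probes depend on each probe's own binding. They served to pick a gene's brightest probe and to group genes by level, and not to compare amounts of RNA.

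Mitochondria keep a small genome that encodes core subunits of the respiratory chain and ATP synthase, and mitochondrial ribosomes translate it. Their RNAs come from the mitochondrial genome, but every one of their proteins is encoded in the nucleus, made by cytosolic ribosomes and imported. Part of these proteins have bacterial counterparts, and the others were added during the evolution of mitochondria. Neurons of the striatum, most of which are GABAergic projection neurons, depend on oxidative phosphorylation for their energy supply. The tissue label was checked with 11 markers of striatal neurons, all of which were detected on all 12 arrays. Their mean level ran from 12.32 to 12.74 across samples and was lowest in ethanol sample 3.

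Because these genes are transcribed from nuclear promoters, their promoter letters were read first. RefSeq promoter windows of the GRCm38.p6 assembly, from 250 bases before to 50 bases after the start, were matched for 64 of the 72 genes, and Mrpl13, Mrpl15, Mrpl38, Mrpl4, Mrpl54, Mrps28, Mrps34 and Mrps35 had no entry. The windows were searched on both strands for CCGGAAG, a core of sites bound by ETS factors such as GABP (NRF-2), for AAGATGGC, a core of YY1 sites, and for the NRF-1 palindrome, which is GCGCA and GCGC with any 1 base between them. NRF-1 and GABP are known as activators of nuclear genes for mitochondrial proteins. Matches could overlap, and a gene was counted once if any of its windows held the letters. The ETS letters occurred in 26 of the 64 genes (40.6%), against 18.9% of tested and 9.93% of all genes with an entry. NRF-1 letters occurred in 11 genes (17.2%), against 11.1% of tested genes and 5.19% of all genes. The YY1 letters also occurred in 11 genes (17.2%), against 5.19% of tested genes and 3.19% of all genes. Among related genes with an entry, ETS letters were in 44.2% of 43 cytosolic ribosomal protein genes and 25.5% of 55 nuclear respiratory chain genes. NRF-1 letters were in 6.98% and 25.5% of these genes, and YY1 letters in 6.98% and 18.2%. Of the 26 genes with ETS letters, 23 had a match between 100 bases before and 50 bases after the start, as did 11 of 11 with NRF-1 letters and 9 of 11 with YY1 letters. A match is a run of letters and not a measured binding site.

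Stretches from 140 bases before to 10 bases after the start, 5′ to 3′ on the gene's strand, are shown for Mrpl33 and Mrps18b, the members higher with the smallest p-values, for Mrps2, the member lower with the smallest p-value among those with an entry, and for Mrps26, which was added after its letters were seen because it holds more than 1 kind of match. Capitals mark the matches. The Mrpl33 stretch lies at chr5:31613811-31613960 on the plus strand, that of Mrps18b at chr17:35916431-35916580 on the minus strand, that of Mrps2 at chr2:28467926-28468075 on the plus strand and that of Mrps26 at chr2:130563617-130563766 on the plus strand.
Mrpl33: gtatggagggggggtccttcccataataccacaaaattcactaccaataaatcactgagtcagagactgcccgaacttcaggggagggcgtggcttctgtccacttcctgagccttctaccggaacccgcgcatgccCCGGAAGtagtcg
Mrps18b: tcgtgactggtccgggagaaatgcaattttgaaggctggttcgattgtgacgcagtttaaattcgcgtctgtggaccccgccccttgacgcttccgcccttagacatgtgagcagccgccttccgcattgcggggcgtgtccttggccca
Mrps2: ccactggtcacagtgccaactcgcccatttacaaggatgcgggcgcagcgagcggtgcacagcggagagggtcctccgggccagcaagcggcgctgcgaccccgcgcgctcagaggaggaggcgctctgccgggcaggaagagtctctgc
Mrps26: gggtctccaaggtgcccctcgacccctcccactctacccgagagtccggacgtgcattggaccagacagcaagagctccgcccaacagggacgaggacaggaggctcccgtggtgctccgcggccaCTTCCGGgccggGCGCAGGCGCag
The Mrpl33 stretch ends in an ETS match across the start. In Mrps26 an ETS match on the opposite strand lies just before the start and is followed by an NRF-1 match across the start. Mrps18b has none of the 3 sets of letters in the stretch, and its ETS match lies elsewhere in the window, while Mrps2 has none in the whole window. Of the members with an entry, ETS letters were present in 43.5% of the 46 higher with ethanol and in 33.3% of the 18 lower. NRF-1 letters were present in 10.9% and 33.3% of these genes, and YY1 letters in 15.2% and 22.2%. These shares rest on few genes and are given as a description.

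No member passed the test between the ethanol and control groups, yet most members lay slightly higher with ethanol. In limma's moderated test, adjusted over all 20296 probes by the Benjamini-Hochberg method, 0 of 109 member probes had an adjusted p under 0.05, and neither did any other probe (0% of all tested). The smallest adjusted p among members was 0.845, which was also the smallest over all probes. At an unadjusted p under 0.05 there were 10 member probes (9.17%) against 5.79% of all probes. Of these, 9 were higher with ethanol (8.26%, against 2.9% of all probes) and 1 was lower (0.917%, against 2.89%). The excess counted in either direction was not stable. Leaving out ethanol sample 5 gave 5 of 109 member probes, against 5.2% of all probes. All 5 were higher with ethanol, against 503 higher of all 20296 probes. Leaving out ethanol sample 4 gave 6 of 109 (against 5.34%), all higher, against 568 higher of 20296. With median scaling there were 5 of 109 (against 5%), 4 of them higher, against 336 higher of 20296. On chip 1 alone there was 1 (against 6.45%), which was higher, against 669 higher of 20296. The share higher stayed above that of all probes in these alternatives except on chip 1 alone. These member counts were among the lowest of the alternatives, and without background correction there were 11 of 109 (against 5.91%). The difference was above 0 for 80 of 109 member probes, which is 73.4% against 50.2% of all tested probes. Counting each gene once, by its brightest tested probe, 53 of 72 members were higher and 19 lower, with a median difference of 0.04, while 5713 of 10933 tested genes (52.3%) were higher, with a median of 0.01. The members were measured on the same 12 samples, so these counts are not independent observations and describe these libraries.

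The differences were small. They ran from −0.18 (Mrps15) to 0.30 (Mrps18c) over the 72 genes. All 109 member probes had a 95% confidence interval within 0.58 log2 of 0 (1.5-fold), as did 91.9% of all probes, and 79 (72.5%) had one within 0.32 log2, against 46.1% of all probes. The median pooled within-group SD of member probes was 0.13 log2, against 0.20 for all tested probes, but members were also brighter (median level 9.62 against 7.74) and SD fell with level. By gene at like level the median SDs were closer, at 0.17 against 0.19 for levels of 7 to 9 and 0.11 against 0.15 for 9 to 11. Detection on all 12 arrays held for 104 of the 109 (95.4%), against 84% of all tested probes. In no member probe did the groups separate: none had every ethanol sample above every control sample (0.158% of all probes did) and none had every ethanol sample below every control sample (0.108%).

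**Figure D1:**
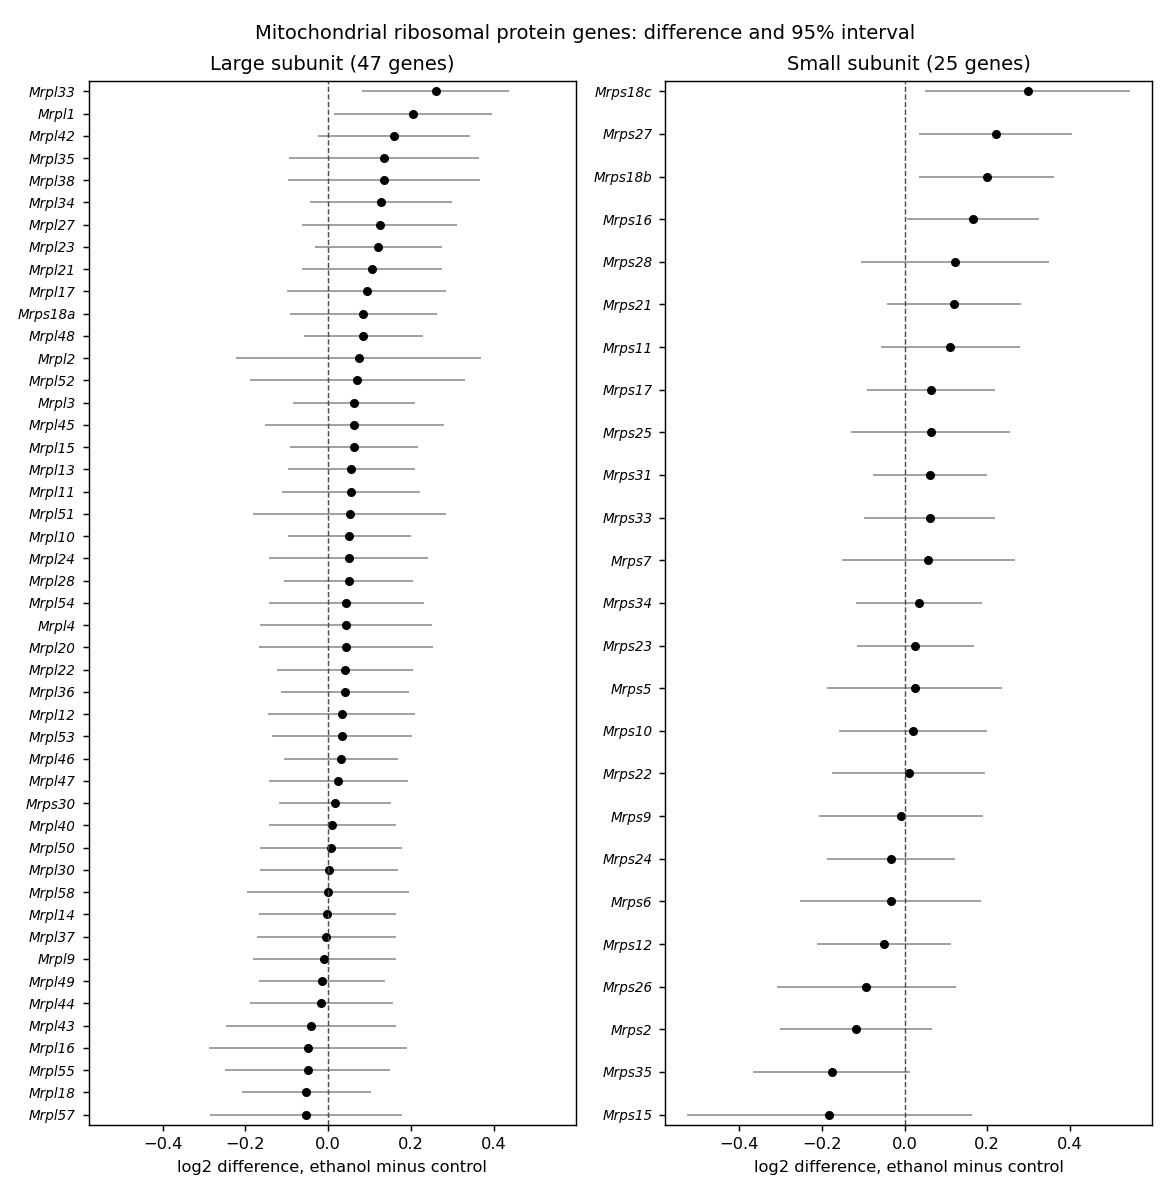
Difference in log2 level, ethanol minus control, of the brightest tested probe of each of the 72 member genes (points) with 95% confidence intervals from limma (bars), by subunit, n = 6 per group. Of the 72 points 53 lie to the right of 0 and 19 to the left, no interval reaches 1.5-fold, and no gene passed at an adjusted p under 0.05.

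The mean level over the 72 genes was 9.98 ± 0.03 (SD, n = 6) with ethanol and 9.94 ± 0.04 (SD, n = 6) in controls. In the ethanol samples it ran from 9.93 to 10.02 and in the controls from 9.88 to 10.00, so the groups overlapped. Control sample 5 had the lowest mean of all 12 samples and ethanol sample 1 the highest. In bulk tissue, fewer cells of a type and less RNA per cell cannot be told apart. Markers of other cell types and regions also differed between samples, and their part in the members' differences was not tested beyond leaving out ethanol samples 3 and 4. The 7 thalamus markers, all detected on all 12 arrays, had mean levels of 9.55 and 9.52 in ethanol samples 3 and 4, against 8.71 to 9.18 in the other 10 samples. The 10 oligodendrocyte markers, 9 of them detected on all arrays, had mean levels from 10.85 in ethanol sample 4 to 12.20 in control sample 4 and 12.23 in ethanol sample 3. With ethanol, 10 of these 10 were higher on chip 1 (median 0.30) and 0 on chip 2 (median −0.59). The 2 tested markers of ependyma and choroid plexus, 1 of them detected on all arrays, ranged most, from 5.54 to 8.78. The 7 markers of cortical excitatory neurons, 4 of them detected on all arrays, were highest in control sample 2 at 8.19, against 7.08 to 7.805 in the others. Without ethanol samples 3 and 4 the median difference of the members was 0.04, with 53 of 72 genes higher. The large subunit then had 39 of 47 genes higher (median 0.04, against 36 with all samples) and the small subunit 14 of 25 (median 0.01, against 17 and 0.03).

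In the large subunit, 36 of 47 genes were higher with ethanol and 11 lower, with a median difference of 0.04. Mrpl33, a small protein with a bacterial counterpart, had the smallest p-value of all members. Its level in controls ran from 11.14 to 11.47 with a median of 11.23, and in the ethanol group from 11.33 to 11.65 with a median of 11.55. Of the 6 ethanol samples, 5 lay above the highest control, and the lowest lay within the control range. The difference was 0.26 (SE 0.08, 95% interval 0.08 to 0.44), or 1.20-fold, with an unadjusted p of 0.00708 and an adjusted p of 0.845 in limma's test, so it did not pass. The second Mrpl33 probe differed by 0.24 (SE 0.09), with 2 of 6 ethanol samples above the highest control. On the chips taken separately the first probe differed by 0.27 and 0.25.

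Mrpl1, a protein of the L1 stalk where used tRNA leaves the ribosome, ran from 8.48 to 8.88 in controls (median 8.75) and from 8.74 to 9.06 with ethanol (median 8.96). The groups overlapped, with 4 of 6 ethanol samples above the highest control, and the difference was 0.20 (SE 0.09, adjusted p 0.845 in limma's test). A dimmer Mrpl1 probe differed by −0.06. The other stalk members, Mrpl10, Mrpl11 and Mrpl12, which form or anchor the stalk that recruits translation factors, differed by 0.05, 0.06 and 0.03. Mrpl12 is also known to bind the mitochondrial RNA polymerase, and its level ran from 10.59 to 11.07 in controls and from 10.80 to 10.92 with ethanol. The 4 stalk genes had a median difference of 0.05, with 2 of 4 higher on chip 1 (median 0.00) and 4 of 4 on chip 2 (median 0.16), and none passed.

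Around the exit of the tunnel through which the new protein leaves, 6 of 7 genes were higher, with a median of 0.05. On chip 1 alone 6 of the 7 were higher (median 0.11) and on chip 2 3 (median −0.01). Mrpl23, a conserved protein at the tunnel exit, ran from 11.14 to 11.48 in controls and from 11.37 to 11.46 with ethanol. The ethanol range lay inside that of the controls although the means differed by 0.12 (SE 0.07). Mrpl45, which helps to tether the ribosome to the inner membrane, was dim, was detected on 4 arrays of each group, and differed by 0.06 (SE 0.10). Mrpl44, whose human counterpart is mutated in a cardiomyopathy, differed by −0.02 (SE 0.08). The remaining tunnel members were Mrpl17 at 0.09, Mrpl22 at 0.04, Mrpl24 at 0.05 and Mrpl47 at 0.02.

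In the central protuberance, the crown of the large subunit, 6 of 8 genes were higher, with a median of 0.05 (0.02 on chip 1, 0.05 on chip 2, and 0.03 without ethanol samples 3 and 4). Mrpl38 (0.14) and Mrpl27 (0.12) were the highest there, while Mrpl18 and Mrpl55 differed by −0.05 each. Mrpl46 and Mrpl48 were among the 5 members with the smallest spread, with pooled within-group SDs of 0.05 and 0.07. Mrpl52 was among the 5 with the largest (0.22). Their differences were 0.03, 0.08 and 0.07.

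Other large-subunit members were mixed in sign. Mrpl42, a protein added in mitochondria, ran from 10.50 to 10.97 in controls and from 10.68 to 10.95 with ethanol, with a difference of 0.16 (SE 0.09). Mrpl34, a short conserved protein, differed by 0.13 (SE 0.08), with 4 of 6 ethanol samples above the highest control and 1 below the lowest. Mrps18a differed by 0.08 (SE 0.08) and Mrps30 by 0.02 (SE 0.06). Mrps30 had the smallest pooled within-group SD of all members, 0.05, with levels from 10.77 to 10.91 in controls and from 10.80 to 10.93 with ethanol. On the lower side, Mrpl57, a protein added in mitochondria, differed by −0.05 (SE 0.11) and Mrpl43 by −0.04 (SE 0.10). Mrpl2 and Mrpl16, conserved proteins near the peptide-bond-forming centre and its tRNAs, varied most between mice among the large-subunit genes together with Mrpl52, with pooled SDs of 0.26 and 0.20, and differed by 0.07 (SE 0.14) and −0.05 (SE 0.11). Of the large-subunit genes with a bacterial counterpart 23 of 28 were higher (median 0.05), and of those added in mitochondria 13 of 19 (median 0.03, with 0.02 on chip 1 and 0.06 on chip 2).

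**Figure D2:**
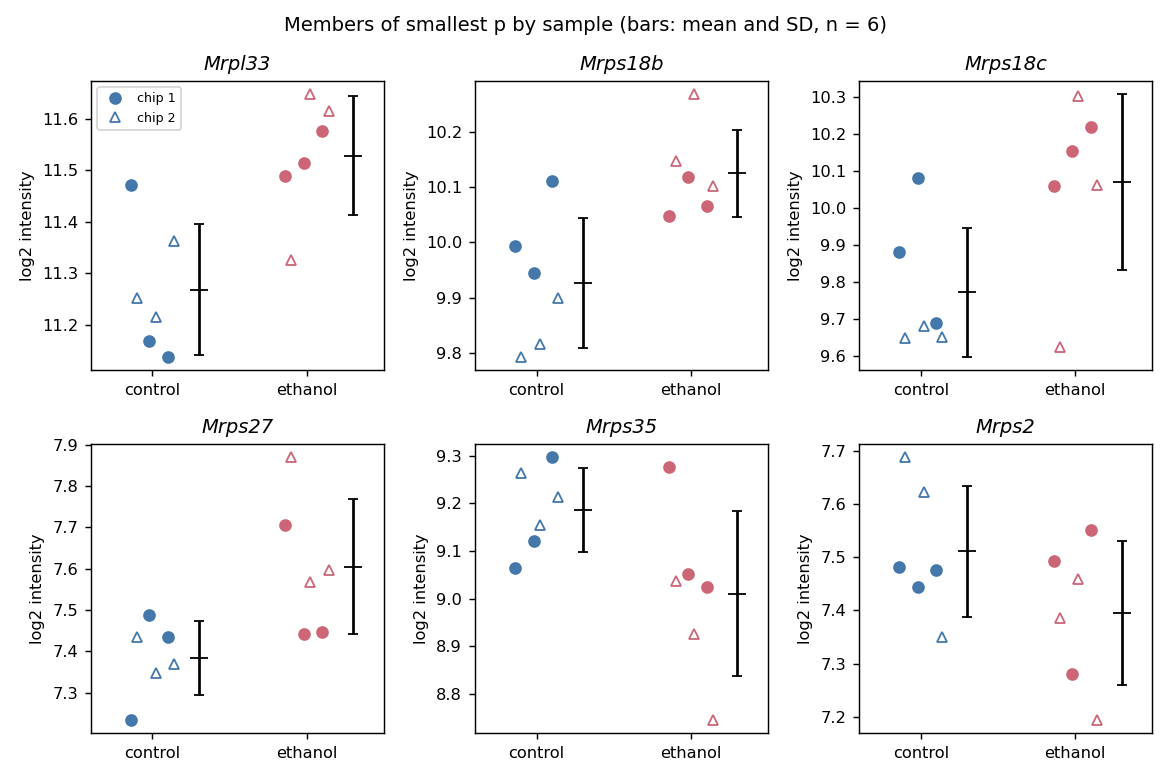
Levels (log2 intensity, vertical axis, a separate scale in each panel) of single member probes in the 6 control and 6 ethanol samples, with points marked by chip and a bar at each group's mean. In Mrpl33 5 of 6 ethanol samples lie above all controls and in Mrps35 5 of 6 lie below all controls, and in each panel the groups overlap.

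In the small subunit, 17 of 25 genes were higher and 8 lower, with a median of 0.03 (13 higher on chip 1 and 17 on chip 2, with medians of 0.03 and 0.08), and it held the largest differences of either sign. Its members with the largest positive differences included Mrps18c and Mrps18b, which are paralogs of Mrps18a and of each other. Mrps18c ran from 9.65 to 10.08 in controls (median 9.69) and from 9.62 to 10.30 with ethanol (median 10.11). Its difference was 0.30 (SE 0.12), and ethanol sample 4 lay below every control while 3 ethanol samples lay above every control. Mrps18b ran from 9.79 to 10.11 in controls (median 9.92) and from 10.05 to 10.27 with ethanol (median 10.11). Its difference was 0.20 (SE 0.08), and its dimmer probes differed by 0.16 and 0.11, so all 3 were higher. Neither passed, with an adjusted p of 0.845 for each in limma's test. The paralogs thus ran in 1 direction with overlapping intervals, and Mrps18a, the paralog in the large subunit, had the smallest difference of them.

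Mrps27, an RNA-binding protein added in mitochondria, ran from 7.23 to 7.49 in controls (median 7.40) and from 7.44 to 7.87 with ethanol (median 7.58). Its difference was 0.22 (SE 0.09), and 4 of 6 ethanol samples lay above the highest control. Mrps16, a conserved protein whose human counterpart is mutated in a fatal infantile disorder of the respiratory chain, ran from 9.23 to 9.37 in controls (median 9.31) and from 9.31 to 9.64 with ethanol (median 9.47). The difference was 0.17 (SE 0.07), again with 4 of 6 above the highest control. Both had an adjusted p of 0.845 in limma's test. Mrps21 differed by 0.12 (SE 0.08), and its highest sample was a control.

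Of the members lower with ethanol, Mrps35, a protein added in mitochondria, had the smallest p-value. In controls it ran from 9.06 to 9.30 (median 9.18) and with ethanol from 8.75 to 9.28 (median 9.03). Of the 6 ethanol samples 5 lay below the lowest control, and 1 lay near the top of the control range. The difference was −0.18 (SE 0.09, 95% interval −0.37 to 0.01), with an unadjusted p of 0.0664 and an adjusted p of 0.854 in limma's test. Mrps2, a conserved protein of the mRNA path, ran from 7.35 to 7.69 in controls and from 7.19 to 7.55 with ethanol, with a difference of −0.12 (SE 0.09). Mrps15, a conserved protein at the contact with the large subunit, had the largest spread of all members, a pooled SD of 0.31, and a difference of −0.18 (SE 0.16). Mrps26, whose promoter stretch is shown above, differed by −0.09 (SE 0.10), and its dimmer probe by 0.06.

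Along the path of the mRNA, 3 of 6 genes were higher and 3 lower, with a median of −0.005 (−0.04 without ethanol samples 3 and 4). Besides Mrps2 the lower ones were Mrps12 (−0.05, SE 0.08), a protein of the decoding centre that is the counterpart of the bacterial target of streptomycin resistance mutations, and Mrps24 (−0.03, SE 0.07). A dimmer Mrps12 probe differed by 0.12. Mrps5, Mrps7 and Mrps28 differed by 0.02, 0.06 and 0.12. Mrps23 and Mrps31 were among the 5 members with the smallest spread, and their brightest probes differed by 0.03 and 0.06. Of the 12 tested members whose human counterparts are known disease genes, 10 were higher, with a median of 0.04. On chip 1 alone 5 of these 12 were higher (median −0.02) and on chip 2 9 (median 0.09), and without ethanol samples 3 and 4 8 were higher (median 0.02).

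Probes for the same gene did not always run the same way. Of the 25 genes with at least 2 tested probes, 14 had all probes on the same side of 0, and in 12 of these all were higher. The other 11 genes were Mrpl1, Mrpl10, Mrpl15, Mrpl37, Mrpl43, Mrpl49, Mrps10, Mrps12, Mrps23, Mrps26 and Mrps31. Mrpl49, a protein added in mitochondria, had 4 probes at −0.01, 0.17, −0.19 and 0.10. The third of these was the single member probe lower at an unadjusted p under 0.05 (0.0456), and 5 of its 6 ethanol samples lay below the lowest control, while the brightest probe stayed near 0. A dimmer Mrps33 probe (0.23, SE 0.08, 5 of 6 ethanol samples above the highest control) and a dimmer Mrpl3 probe (0.20, SE 0.09) were higher at an unadjusted p under 0.05 although the brightest probes of these genes differed by 0.06 each. These last probes were picked out after their values were seen.

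The share of members higher differed between ranges of level, of which all but that of 9 to 11 hold few members. Among genes with a mean level of 9 to 11, 34 of 46 members were higher (73.9%, against 51.9% of all tested genes in that range). Above 11 it was 12 of 14 (85.7%, against 50.2%), and from 7 to 9 it was 6 of 11 (54.5%, against 52.9%). The single member under 7 was Mrpl45, which was higher.

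**Figure D3:**
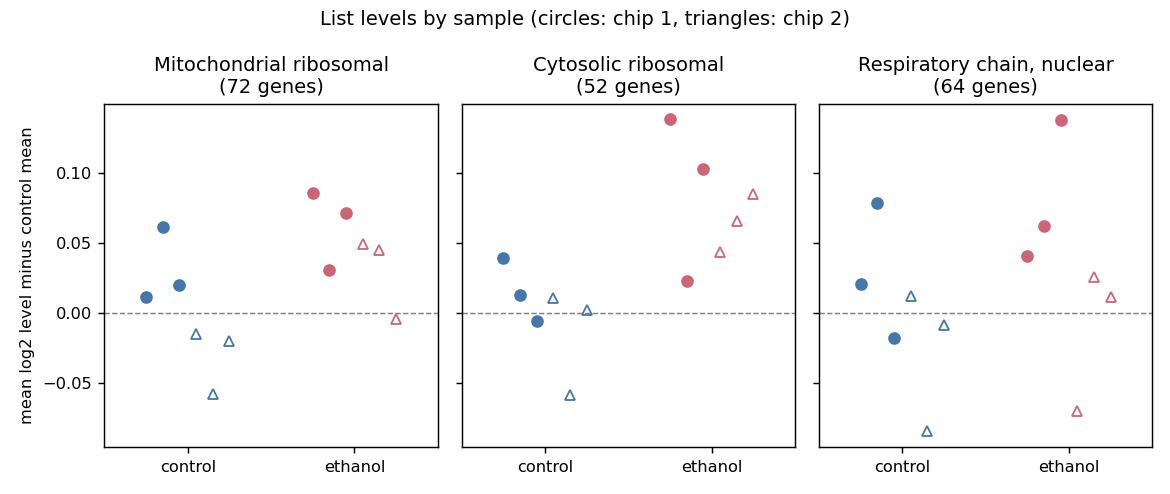
Mean log2 level over the genes of a list in each of the 12 samples, minus the control mean of that list (vertical axis). The panels show the 72 mitochondrial ribosomal protein genes, 52 cytosolic ribosomal protein genes and 64 nuclear respiratory chain genes. Circles mark chip 1 and triangles chip 2, and in each panel the groups overlap.

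Both chips held 3 arrays of each group, which allowed the difference to be taken on each. On chip 1 46 of 72 members were higher with ethanol (median 0.03) and on chip 2 49 of 72 (median 0.06). Of the 72 genes 30 were higher on both chips and 7 lower on both. Counted by probe, 43 of 109 (39.4%) were higher on both chips, against 23.1% of all probes, and 9 (8.26%) were lower on both, also against 23.1%. Mrpl33, Mrps18c and Mrpl23 had like differences on the chips (0.27 and 0.25, 0.26 and 0.34, 0.12 and 0.12). Mrps18b, Mrps16 and Mrpl1 were near 0 on chip 1 (0.06, 0.05 and 0.08) and higher on chip 2 (0.34, 0.29 and 0.33). Mrps15 differed by 0.14 on chip 1 and by −0.51 on chip 2, and Mrps5, a conserved protein of the small subunit, by −0.19 and 0.24.

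The difference between chips in the ethanol difference was tested as an interaction in limma. It passed at an adjusted p under 0.05 for 0 of 109 member probes and 0% of all probes, with a smallest member adjusted p of 0.406. At an unadjusted p under 0.05 it held for 7 member probes (6.42%) against 9.98% of all probes, and these belonged to Mrpl15, Mrpl3, Mrpl49, Mrps15 and Mrps5. Raw medians differed between the chips, but levels were compared after quantile normalization, which gives every array the same distribution. Level then differed between the chips, at an adjusted p under 0.05 in limma, for 2 of 20296 probes (0.00985%). Both were lower on chip 2 (lower 0.00985%, higher 0%). None was a member, and the smallest member adjusted p in this comparison was 0.368.

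**Figure D4:**
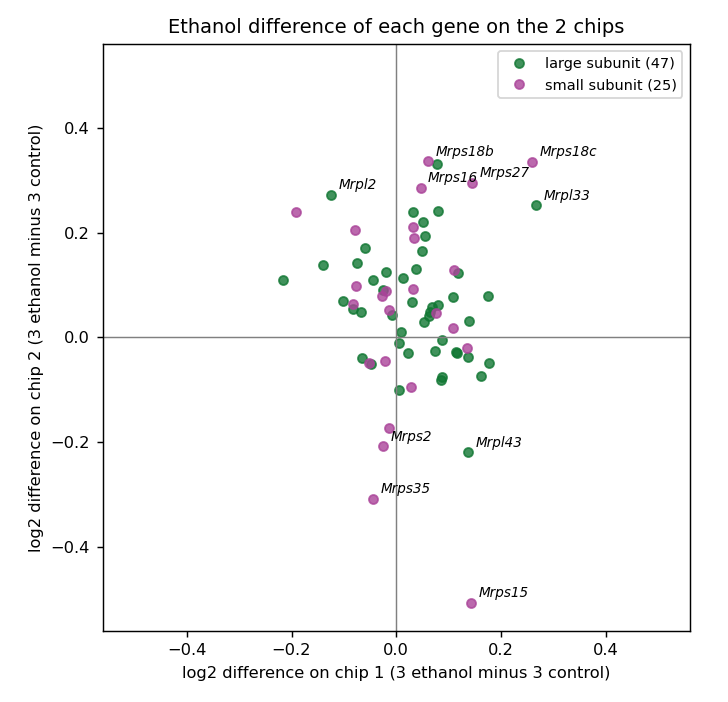
Difference in log2 level, ethanol minus control, on chip 2 (vertical axis, 3 against 3 arrays) against that on chip 1 (horizontal axis, 3 against 3 arrays) for the 72 member genes, with selected genes named. Of the 72 points 30 lie above 0 on both axes and 7 below 0 on both, and Mrps15 stands at 0.14 and −0.51.

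Proteins of the mitochondrial ribosome whose symbols follow another pattern were set beside the members. Chchd1, a small-subunit protein with a twin cysteine motif, ran from 12.20 to 12.43 in controls (median 12.28) and from 12.43 to 12.58 with ethanol (median 12.49). It had the smallest p-value of the 4 tested, with 5 of 6 ethanol samples above the highest control and a difference of 0.21 (SE 0.07, adjusted p 0.845 in limma's test). Gadd45gip1 and Ptcd3 differed by 0.11 (SE 0.15) and −0.06 (SE 0.09), and Dap3, the GTP-binding small-subunit protein also known from studies of cell death, by −0.03 (SE 0.08). None of the 4 passed.

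Among the other lists of nuclear genes for mitochondrial functions, the genes of the respiratory chain and ATP synthase were most often higher, in 49 of 64 (76.6%, median 0.03). Their mean level was 11.75 ± 0.07 (SD, n = 6) with ethanol and 11.72 ± 0.05 (SD, n = 6) in controls. Cytosolic ribosomal proteins, which translate these mRNAs, were higher in 44 of 52 genes (84.6%), with a median of 0.09, larger than that of the mitochondrial ones. Their mean level was 12.60 ± 0.04 (SD, n = 6) with ethanol and 12.53 ± 0.03 (SD, n = 6) in controls, and ran from 12.55 to 12.67 and from 12.47 to 12.57, so the groups overlapped. None of these genes passed, and no test between lists was made.

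The factors that build and serve the mitochondrial ribosome lay nearer to the share of all genes, and several of their counts differed between the chips. Translation factors were higher in 8 of 13 genes (3 on chip 1 and 9 on chip 2), with Gfm1, the elongation factor that moves the ribosome along the mRNA, at 0.15 (SE 0.09) and the release factor Mtrf1l at −0.14 (SE 0.09). Assembly factors were higher in 12 of 20 (8 on chip 1 and 14 on chip 2), among them Mterf3 (0.17, SE 0.09) and the GTPase Mtg2 (0.17, SE 0.13). Mitochondrial tRNA synthetases were higher in 9 of 19 (5 on chip 1 and 16 on chip 2), with Wars2 and Iars2, which charge the tRNAs for tryptophan and isoleucine, at −0.18 (SE 0.13) and −0.09 (SE 0.08). In transcription and nucleoid maintenance 11 of 17 were higher, but the 2 genes with the smallest p-values were lower: Tfam, which packages mitochondrial DNA and starts its transcription, differed by −0.18 (SE 0.10), and Fastkd3 by −0.13 (SE 0.08). Of the import machinery 15 of 25 were higher, with Tomm6 of the outer-membrane pore at −0.22 (SE 0.10, unadjusted p 0.0448 and adjusted p 0.845 in limma's test) and the chaperone Timm9 at 0.16 (SE 0.08). Of the regulators of mitochondrial biogenesis 5 of 11 were higher. Gabpa, the DNA-binding subunit of GABP, differed by −0.27 (SE 0.15), and Prkaa1, a catalytic subunit of the energy-sensing AMP-activated kinase, by −0.17 (SE 0.11). No gene of these lists passed.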

How the data were processed

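Illumina bead arrays were hybridised with RNA from the caudate putamen of 12 mice, 6 per group. Per the submitters' processing notes, GenomeStudio 1.9.0 was used. The deposited non-normalized table holds, per the file headers, a mean bead intensity and a detection p-value for each of 45281 probes. Array medians of raw intensity ran from 149.5 to 153.2 on chip 1 and from 136.1 to 144.5 on chip 2. The authors' deposited normalized intensity table was used as an alternative. Depth does not apply to arrays, and the number of arrays limits the precision.

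With limma 3.58.1 in R 4.3.3, intensities were background-corrected (normexp), raised by an offset of 16 and quantile-normalized, and their log2 was used. The deposited values themselves were not on a log2 scale. Probes that 6 or more arrays detected at p under 0.05 entered lmFit and eBayes, with p-values adjusted over all of them. The group labels came from the sample titles and characteristics. No 2 arrays were alike (closest pair, root mean square difference 0.272 log2). Chip and group were crossed, so chip was tried as a block and each chip alone. The sample titles do not say whether equal replicate numbers pair the samples, and the main fit used no pairing. The fit was tested on simulated data. In the platform annotation 34885 probes have 1 symbol, 18 several and 10378 none. By Entrez gene ID, 34807 probes matched the RefSeq gene table, with no symbol changed. Columns of per-sample values left unused numbered 0.

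Member genes are described by their brightest tested probe. Named are the 10 higher and the 10 lower with the smallest p, genes whose probes have opposite signs, the 5 with the largest and the 5 with the smallest spread, a few with known roles, and the 2 with the smallest p of each other mitochondrial list. The members and lists were chosen with earlier results of these data known. Role lists rest on textbook knowledge. Sequences are from RefSeq (GRCm38.p6).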

Additional observations from a re-analysis of the deposited data

Results flagged for a closer look

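Single samples stood apart from the other 5 of their group in 6 of the 84 groups examined, by the gap to the nearest sample relative to the group's range (Dixon's test). Chance flags about 1 in 20 groups. Mrps12 in control sample 5 was at 11.52, against 11.69 to 11.78 in the other controls. Mrps30 in control sample 2 was at 10.91, against 10.77 to 10.82. In ethanol sample 4, Mrps18c was at 9.62, against 10.06 to 10.30 in the other ethanol samples, and Mrps21 was at 10.69, against 10.86 to 10.93. In ethanol sample 5, Mrps26 was at 10.28, against 10.63 to 10.84, and Mrps18a was at 10.73, against 10.32 to 10.47.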

How the results depend on the processing

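No probe passed at an adjusted p under 0.05 in limma under any alternative, and the smallest adjusted p of a member ran from 0.405 on chip 2 alone to 0.981 with median scaling. The median member difference stayed above 0 throughout. Leaving out 1 sample at a time gave medians of 0.0298 to 0.0530 and 50 to 57 genes higher. With median scaling instead of quantile normalization the members' median was 0.0206 with 47 genes higher, the median of all probes was −0.0197, and probes at an unadjusted p under 0.05 split into 336 higher and 678 lower, against 588 and 587. Such probes numbered 2420 of 45281 (5.34%) without the detection filter and 2051 of 20296 (10.1%) on chip 2 alone, against 1175 of 20296 (5.79%). With the replicate block, 0 probes passed, 1425 had an unadjusted p under 0.05 (7.02%), 6 of them members, and the member median was 0.0438. Same-numbered samples had correlated deviations of −0.138 to 0.277, and 2 of 6 ethanol samples correlated best with the control of their number. As 0 probes passed with or without the block, it could change no call. Member probes at an unadjusted p under 0.05 in limma numbered 6 with the block and 10 without it. Of 37 named members, 21 kept their sign under every alternative and 16 changed it at least once, and the cause was not tested. Array weights gave Mrpl44 0.00507, Mrps10 −0.0108 and Mrpl37 0.00131. Chip 1 alone gave Mrpl2 −0.124, Mrps15 0.143, Mrpl43 0.137, Mrpl37 0.0218, Mrps10 −0.0131, Mrps23 −0.0266, Mrps30 −0.00868, Mrpl46 −0.0258, Mrpl16 0.00543 and Mrpl12 −0.0758. Chip 2 alone gave Mrpl45 −0.0491, Mrpl49 0.0533, Mrpl57 0.110 and Mrpl44 0.0687. Averaging a gene's probes gave Mrpl49 0.0153, Mrps12 0.0324, Mrps10 −0.0102 and Mrpl37 0.00374. Median scaling gave Mrps10 −0.00464 and Mrps30 −0.00932. Without ethanol samples 3 and 4, Mrpl55 was 0.00896, Mrpl57 0.0246, Mrpl37 0.00447, Mrps10 −0.0397 and Mrpl44 0.00351. Leaving out single samples gave −0.0409 to 0.0183 for Mrpl49, −0.0494 to 0.0288 for Mrpl44, −0.0308 to 0.0352 for Mrpl37, −0.0186 to 0.0554 for Mrps10, −0.111 to 0.0194 for Mrpl16, −0.00135 to 0.0343 for Mrps30, −0.0946 to 0.0247 for Mrpl57, −0.0863 to 0.00575 for Mrpl55, −0.0876 to 0.0142 for Mrpl43, −0.0112 to 0.0837 for Mrpl12 and −0.0171 to 0.155 for Mrpl2.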
